A study of Homo sapiens with 8 samples.

Results

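The DNA replication machinery of D283 Med medulloblastoma cells was followed here through 48 genes, which encode the origin recognition complex, the licensing factors, the replicative helicase and its activators, the replicative polymerases, the sliding clamp with its loader, and the factors that process and protect the replication fork. The genes were chosen by symbol from these known functions, and each symbol was matched through its Ensembl identifier to 1 of the 60668 genes in the count files. All 48 were found, and all 48 passed the filter on low counts of more than 1 CPM (counts per 1e+06 counts of the library) in at least 4 of the 8 libraries.

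D283 Med is a long-established human line derived from medulloblastoma, a malignant tumor of the cerebellum. All 8 libraries come from D283-OMO, a hygromycin-selected D283 Med line in which a lentivirus placed a FLAG-tagged OMOMYC transgene under doxycycline (DOX) control. OMOMYC is a dominant-negative mini-protein made from the dimerization region of MYC, the transcription factor that drives growth in many tumors. Polyadenylated RNA was sequenced from 4 replicates left untreated (OMO) and from 4 replicates given DOX for 72 h (OMO+DOX), which the study describes as independent biological replicates, to ask how the transcriptome responds when MYC is inhibited. No library of DOX-treated cells without the transgene was analysed here, so effects of DOX itself and of OMOMYC cannot be told apart.

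Replication begins when the origin recognition complex (ORC), with CDC6 and CDT1, loads the MCM2-7 ring onto DNA in G1 phase, a step called licensing. In S phase the ring is converted into an active helicase by CDC45 and the GINS complex with the help of MCM10, and polymerases alpha, epsilon and delta copy the opened strands while PCNA holds them on the template. Many of these genes are switched on together near the G1/S boundary by E2F transcription factors, and proliferating embryonal tumors such as medulloblastoma express them at high levels.

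Total expected counts per library ranged from 38390696 to 54020506, and the lowest count of any replication gene in any library was 145, so that none was near the floor of 3 counts. Across the genes tested, log2 CPM correlated at r of 0.9893 to 0.9965 among OMO libraries, at 0.9941 to 0.9968 among OMO+DOX libraries and at 0.8644 to 0.8824 between the groups, as a description over genes that share their libraries. Mitochondrial genes took 4.73 to 5.13% of the counts in OMO and 5.70 to 5.95% in OMO+DOX. Of 10 genes listed here as markers of a Group 3 medulloblastoma line, 6 stood above 1 CPM in every library, OTX2 and CRX among them. EOMES, LMX1A, BARHL1 and GFI1B did not. The study places D283 Med between Group 3 and Group 4, and how far the list is particular to Group 3 was not tested. The summed level of the 10 was 2259 to 2480 CPM in OMO and 749 to 771 CPM in OMO+DOX. None of 5 blood markers passed 1 CPM in every library. Fibroblast markers summed to 35.1 to 37.6 CPM in OMO and 55.4 to 68.7 CPM in OMO+DOX, a rise carried by PDGFRB (mean 13.5 and 40.4 CPM), while COL1A1 averaged 22.1 and 23.4 CPM and COL1A2, DCN and LUM stayed below 1 CPM. Epithelial markers summed to 13.7 to 17.4 CPM and 4.0 to 4.7 CPM, with 1 of 4 above 1 CPM in every library, and endothelial markers to 2.91 to 3.67 CPM and 2.59 to 3.5 CPM, with 1 of 3. Within the latter, VWF averaged 3.26 CPM in OMO and 1.24 CPM in OMO+DOX, and CDH5 had 0 counts in every OMO library and averaged 1.85 CPM in OMO+DOX. The part of these shifts in the results on replication genes was not tested. MYC itself read 880, 899, 1049 and 928 CPM in OMO and 1179, 1047, 1115 and 1150 CPM in OMO+DOX (log2 fold change, log2FC, 0.26 ± 0.06 SE), and these counts may include reads of the OMOMYC transgene, since the MYC-derived part of both messages cannot be told apart.

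With DOX, the transcripts of the replication machinery fell nearly throughout. Of the 48 genes, 44 were lower in OMO+DOX at a false discovery rate (FDR, the Benjamini-Hochberg adjusted p of edgeR's quasi-likelihood test across the 15222 genes tested) below 0.05, where 38.1% of all genes tested were called lower. ORC4 and MCM9 were the 2 called higher, where 38.5% of all genes tested were, and ORC2 and POLA1 passed in neither direction. The response was wide across the transcriptome, 76.6% of the genes tested being called in one direction or the other, so that size tells more than the call. A fall of more than 1 on the log2 scale, a halving of the level, was reached by 30 of the 48, against 9.81% of all genes tested, and a rise of that size by 0 of the 48, against 11% of all genes tested. The study's methods set an FDR under 0.001 with a log2FC beyond 2 in size, while its results text gives an FDR under 0.01. The limits of the methods, called the limits of the study here, were passed downward by CDT1, GINS2, MCM5, ORC1, CDC6 and PRIM1. That is 6 of the 48 against 2.75% of all genes tested, and 0 passed upward, against 4.38%. With libraries scaled by their total counts alone, 3 of these 6 passed, and ORC1, CDC6 and PRIM1 had log2FC of -1.98, -1.97 and -1.91. The median log2FC of the 48 was -1.29, beside 0.01 over all genes tested.

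For most of these genes the separation between groups was larger than the spread within them. ORC2 and POLA1 overlapped, and the gap between the groups was smaller than the OMO range for POLE2, POLD2 and MCM8. For 44 of the 48 genes the highest OMO+DOX library lay below the lowest OMO library, as it did for 35.4% of all genes tested, and for ORC4 and MCM9 the order was the opposite, as for 36.3% of all genes tested. The median coefficient of variation of the 48 was 6.01% among OMO and 4.78% among OMO+DOX replicates, and the standard errors of log2FC lay between 0.04 and 0.10. Added together, the 48 transcripts made up 3959, 4186, 4140 and 4057 CPM in the OMO libraries and 1660, 1606, 1644 and 1645 CPM in the OMO+DOX libraries. As a share of all counts this was 0.384 to 0.400% in OMO and 0.168 to 0.174% in OMO+DOX. These are CPM of a bulk culture, and fewer cells in S phase and less of each RNA per cell cannot be told apart.

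**Figure D1:**
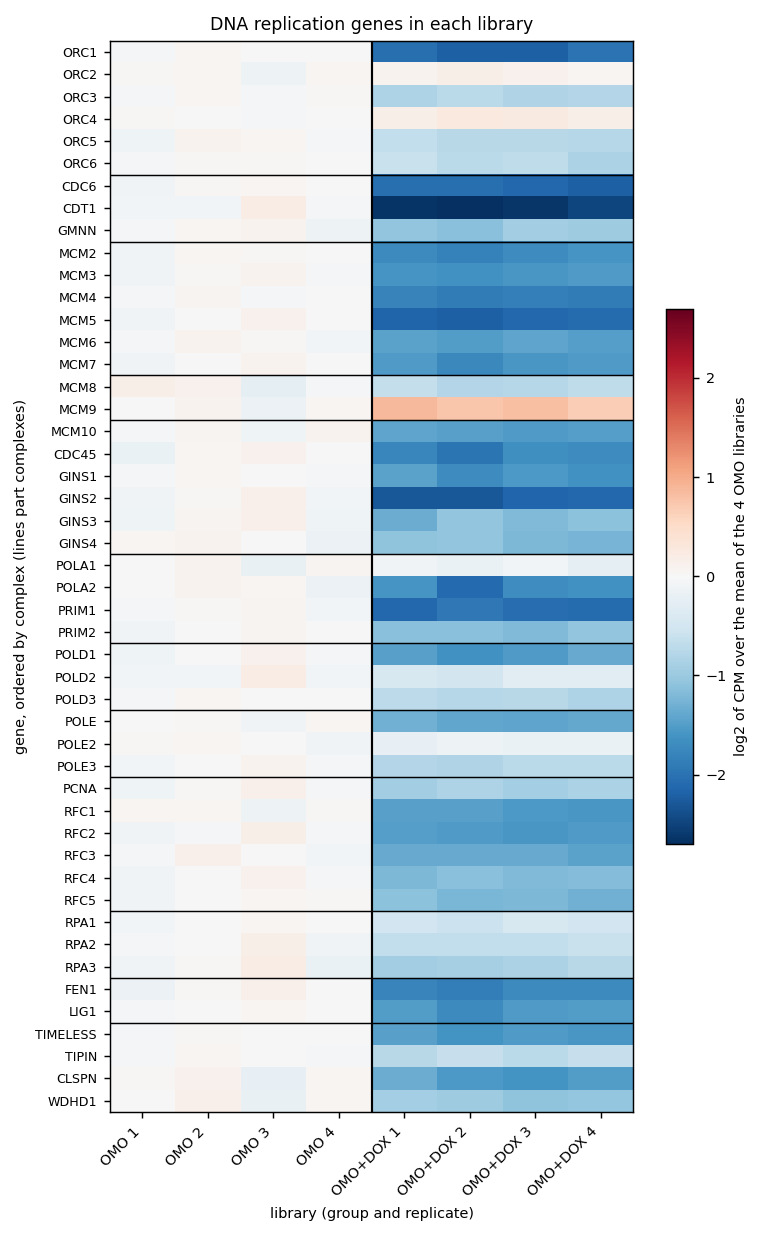
CPM of the replication genes (rows) in each of the 4 OMO and 4 OMO+DOX libraries (columns), shown as log2 of the CPM over the mean of the 4 OMO libraries. 44 of the 48 genes are lower in every OMO+DOX library than in any OMO library, and ORC4 and MCM9 show the opposite order.

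To show the sequence context of genes that moved together, promoter windows were read from RefSeq (GRCh38.p14), 250 bases before to 50 after each annotated gene start. Windows were matched by symbol for 42 of the 48 genes, without MCM4, MCM5, GINS4, POLD3, RPA2 and RPA3. Each window was searched on both strands for the E2F-type octamers TTTCCCGC, TTTGGCGC, TTTCGCGC and TTTGCCGC, where matches may overlap. A match is a description of the letters and not a bound site. The 10 windows below, 270 bases each and ending 20 bases after the start, run 5′ to 3′ in the direction of transcription with matches in capitals. They belong to the 5 genes with a window among the 6 of largest fall (CDT1, GINS2, ORC1, CDC6 and PRIM1), to MCM6 for its number of matches, and to genes that changed little or rose (POLA1, POLE2, ORC2 and MCM9).
CDT1 (chr16:88803539-88803808, + strand): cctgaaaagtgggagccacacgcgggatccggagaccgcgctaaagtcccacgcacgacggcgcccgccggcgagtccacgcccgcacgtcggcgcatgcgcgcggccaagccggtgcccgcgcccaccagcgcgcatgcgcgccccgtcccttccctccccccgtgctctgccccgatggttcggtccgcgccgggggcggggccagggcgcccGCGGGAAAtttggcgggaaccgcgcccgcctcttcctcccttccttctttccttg
GINS2 (chr16:85688935-85689204, - strand): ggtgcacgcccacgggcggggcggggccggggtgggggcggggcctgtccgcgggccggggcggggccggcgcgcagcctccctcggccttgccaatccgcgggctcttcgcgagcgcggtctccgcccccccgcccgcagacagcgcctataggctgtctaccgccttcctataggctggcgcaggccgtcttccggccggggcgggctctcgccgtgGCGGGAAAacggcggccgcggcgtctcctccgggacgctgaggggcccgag
ORC1 (chr1:52404404-52404673, - strand): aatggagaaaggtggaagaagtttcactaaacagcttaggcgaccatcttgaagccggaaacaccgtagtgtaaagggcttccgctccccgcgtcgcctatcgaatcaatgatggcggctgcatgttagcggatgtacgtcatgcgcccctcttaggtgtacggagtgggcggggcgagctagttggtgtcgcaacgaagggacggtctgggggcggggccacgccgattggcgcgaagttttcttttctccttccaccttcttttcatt
CDC6 (chr17:40287629-40287898, + strand): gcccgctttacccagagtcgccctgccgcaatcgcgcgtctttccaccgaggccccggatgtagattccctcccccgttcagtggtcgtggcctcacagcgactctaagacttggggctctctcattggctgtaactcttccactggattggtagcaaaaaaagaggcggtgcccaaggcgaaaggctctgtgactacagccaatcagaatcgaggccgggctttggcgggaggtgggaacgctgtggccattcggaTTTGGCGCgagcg
PRIM1 (chr12:56752304-56752573, - strand): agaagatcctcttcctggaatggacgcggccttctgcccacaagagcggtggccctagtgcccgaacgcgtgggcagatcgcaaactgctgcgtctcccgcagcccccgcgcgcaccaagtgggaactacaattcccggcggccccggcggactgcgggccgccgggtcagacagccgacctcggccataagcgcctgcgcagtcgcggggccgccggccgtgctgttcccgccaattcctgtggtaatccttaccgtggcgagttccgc
MCM6 (chr2:135876424-135876693, - strand): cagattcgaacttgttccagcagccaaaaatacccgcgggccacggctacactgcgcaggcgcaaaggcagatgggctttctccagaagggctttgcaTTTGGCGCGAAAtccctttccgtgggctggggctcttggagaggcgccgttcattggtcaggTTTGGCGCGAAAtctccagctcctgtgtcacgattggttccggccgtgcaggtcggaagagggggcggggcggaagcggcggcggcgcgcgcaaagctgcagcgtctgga
POLA1 (chrX:24693668-24693937, + strand): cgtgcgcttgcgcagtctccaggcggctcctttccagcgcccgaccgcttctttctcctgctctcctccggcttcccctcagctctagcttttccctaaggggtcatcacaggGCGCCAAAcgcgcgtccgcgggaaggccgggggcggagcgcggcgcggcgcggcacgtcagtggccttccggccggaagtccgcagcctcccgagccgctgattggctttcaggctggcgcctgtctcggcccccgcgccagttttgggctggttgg
POLE2 (chr14:49688195-49688464, - strand): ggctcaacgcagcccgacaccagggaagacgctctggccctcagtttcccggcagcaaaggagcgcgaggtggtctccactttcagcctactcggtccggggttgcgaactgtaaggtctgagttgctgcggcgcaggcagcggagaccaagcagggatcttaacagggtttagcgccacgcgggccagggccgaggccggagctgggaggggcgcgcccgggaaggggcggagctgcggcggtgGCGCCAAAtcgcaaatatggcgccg
ORC2 (chr2:200963641-200963910, - strand): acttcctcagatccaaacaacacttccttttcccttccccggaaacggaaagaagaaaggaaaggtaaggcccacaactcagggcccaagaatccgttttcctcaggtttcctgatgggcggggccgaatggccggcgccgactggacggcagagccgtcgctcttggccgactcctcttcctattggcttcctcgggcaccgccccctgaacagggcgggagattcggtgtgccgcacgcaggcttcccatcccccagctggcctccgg
MCM9 (chr6:118935140-118935409, - strand): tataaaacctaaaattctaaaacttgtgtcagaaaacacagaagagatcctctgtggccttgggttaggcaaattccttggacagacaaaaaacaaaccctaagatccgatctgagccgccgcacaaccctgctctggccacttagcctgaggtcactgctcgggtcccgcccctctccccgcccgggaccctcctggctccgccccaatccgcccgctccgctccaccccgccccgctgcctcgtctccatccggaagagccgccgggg

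Among the 42 replication genes with a window in the table, 21 held the octamer (50%), beside 6.50% of the 10655 tested genes with a window. Some genes have more than 1 window. Counted by window, the octamer stood in 3.31% of all 35116 windows of this length and in 38.9% of the 54 windows of these 42 genes. In all, 28 matches lay in these windows, 17 of them began in the last 100 bases before the start, and 5 genes held 2 or more. MCM6 is shown because its window holds 4 matches, in 2 runs in which a TTTGGCGC and a GCGCGAAA overlap. The genes with the octamer had a median log2FC of -1.46 and those without it -1.17, and 15 of the 27 genes with a window that fell by more than 1 held it, as did 6 of the 15 others. Genes with and without the letters overlapped in response. POLA1 and POLE2, with log2FC of -0.14 and -0.18, hold an octamer, while ORC1 and PRIM1, at -2.10 and -2.04, hold none of these letters in this window, nor does MCM9, the gene with the largest rise. The canonical E-box CACGTG, the sequence to which MYC and MAX bind, was found in 9 of the 42 genes (21.4%) and in 12.7% of tested genes with a window. By window it stood in 16.7% of the 54 and in 7.26% of all windows. Its holders had a median log2FC of -1.02 and the other 33 genes -1.39. The CCAAT box, searched as CCAAT on both strands, was held by 26 of the 42 (61.9%) and by 43.5% of tested genes. By window it stood in 55.6% of the 54 and in 34.6% of all windows. The cell cycle homology region, searched as TTTGAA and TTCGAA on both strands, was held by 2 of the 42 (4.76%) and by 15.3% of tested genes. By window it stood in 3.70% of the 54 and in 16.4% of all windows.

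**Figure D2:**
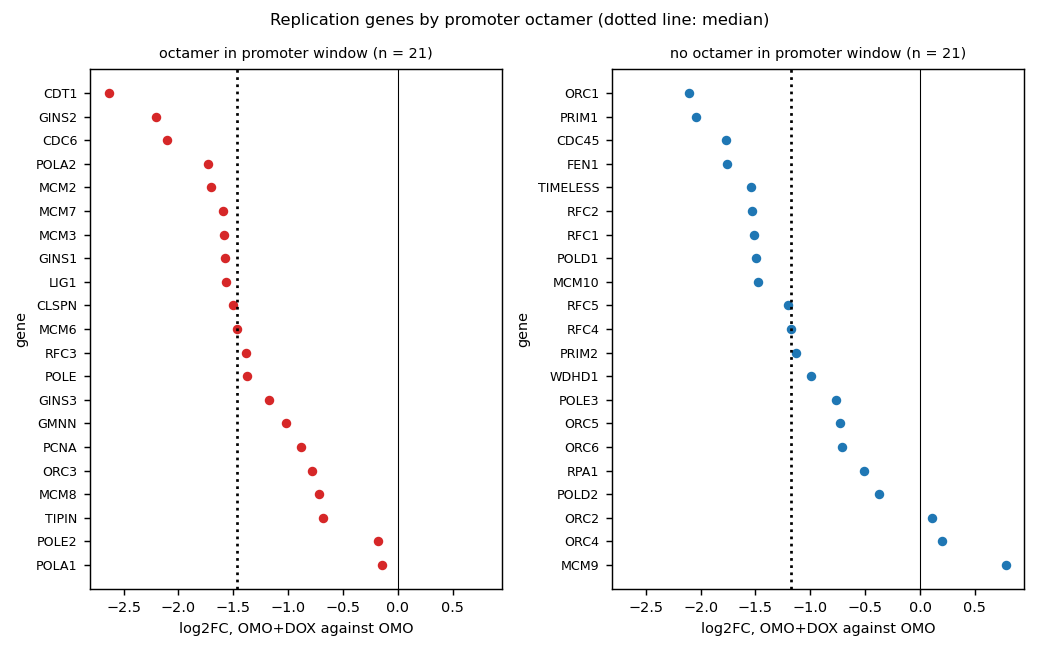
log2FC of OMO+DOX against OMO (horizontal axis) for the 42 replication genes with a promoter window, split into 21 that hold the octamer (left) and 21 that do not (right), with a dotted line at each median. The medians are -1.46 and -1.17, and genes with little change stand in both panels.

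The licensing factors CDT1 and CDC6 were among the 6 genes past the limits of the study, and their inhibitor fell less. CDT1 (ENSG00000167513.9, chr16:88803213-88809258), which brings the MCM ring to the origin, read 65.0, 64.7, 78.3 and 66.3 CPM in the OMO libraries and 10.9, 9.84, 11.1 and 12.2 CPM in the OMO+DOX libraries. It was 6.22-fold lower with DOX (log2FC -2.64 ± 0.08), the largest change among the 48 genes, although OMO replicate 3 stood above the other untreated libraries. CDC6, the ATPase that joins ORC to load the ring, fell from 57.0, 62.3, 62.9 and 60.2 CPM to 14.7, 14.7, 13.9 and 13.2 CPM, 4.29-fold lower (log2FC -2.10 ± 0.05), with no overlap. Their antagonist geminin (GMNN), which binds CDT1 and blocks a second round of licensing, read 23.8, 25.3, 26.0 and 22.1 CPM in OMO and 11.6, 11.0, 12.6 and 12.5 CPM in OMO+DOX, with a log2FC of -1.02 ± 0.07. All 3 licensing transcripts were thus lower, but not in proportion. The count ratio of CDT1 to GMNN within a library dropped from 2.82 to 0.920, a log2 difference of -1.62 ± 0.07, and that of CDC6 to GMNN from 2.50 to 1.18, a log2 difference of -1.08 ± 0.09.

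ORC, which marks the origins, was divided among its subunits. ORC1 (ENSG00000085840.13, chr1:52372829-52404459), the subunit that itself varies through the cell cycle, read 29.2, 31.2, 30.0 and 30.2 CPM in OMO and 7.35, 6.53, 6.57 and 7.60 CPM in OMO+DOX, 4.30-fold lower (log2FC -2.10 ± 0.06). ORC3, ORC5 and ORC6 fell less, with log2FC of -0.79, -0.73 and -0.71. ORC2, a core subunit of the ring, read 27.8, 28.2, 24.9 and 28.5 CPM in OMO and 29, 30.7, 29.7 and 28.4 CPM in OMO+DOX. These values overlap, and the log2FC of 0.11 ± 0.05 missed the threshold (adjusted p = 0.0919, edgeR quasi-likelihood test). It passed with libraries scaled by their total counts alone (log2FC 0.23, adjusted p = 0.0035) and without OMO+DOX replicate 4 (log2FC 0.15, adjusted p = 0.043), and without OMO replicate 3, the lowest untreated library, it was 0.046 (adjusted p = 0.356). ORC4 (ENSG00000115947.13, chr2:147930397-148021604), another ATPase-fold subunit, read 38.6, 38, 37 and 37.3 CPM in OMO and 42.2, 45.6, 44.3 and 41.9 CPM in OMO+DOX, all of the latter higher (log2FC 0.20 ± 0.04, adjusted p = 0.00132, edgeR quasi-likelihood test). ORC4 shares 430 exonic bases with ACVR2A and 157 with MBD5, both on the other strand and both higher with DOX (log2FC 0.89 and 0.57), and the part of shared reads in its rise was not tested. The count ratio of ORC1 to ORC2 went from 1.10 to 0.238, a log2 difference of -2.21 ± 0.09. Per kilobase of transcript, the highest ORC subunit exceeded the lowest 4.01-fold in OMO and 5.88-fold in OMO+DOX. The highest was ORC3 in both groups, but the lowest was ORC4 in OMO and ORC1 in OMO+DOX, so the 2 folds compare different pairs.

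The 6 subunits of the MCM2-7 ring, the core of the replicative helicase, all fell by more than 1 on the log2 scale. MCM5 (ENSG00000100297.16, chr22:35400063-35425430) fell the most, from 187, 201, 217 and 199 CPM to 44.7, 43.6, 46.5 and 47.8 CPM (log2FC -2.14 ± 0.06, 4.40-fold lower). MCM4 followed, from 243, 259, 243 and 244 CPM to 71.0, 66.9, 68.9 and 67.3 CPM (log2FC -1.85 ± 0.04). MCM2 read 199, 219, 216 and 212 CPM in OMO and 64, 60, 65.4 and 70.2 CPM in OMO+DOX (log2FC -1.71 ± 0.06). In each case the OMO libraries sat more than 100 CPM above the OMO+DOX libraries. MCM7 read 181, 192, 206 and 192 CPM in OMO and 66.6, 57.8, 64.7 and 66.5 CPM in OMO+DOX (log2FC -1.59 ± 0.06), while MCM3 and MCM6 had log2FC of -1.58 and -1.46. Because the subunits assemble in equal numbers, their levels per kilobase were set side by side. In OMO these ran from 34.5 CPM per kilobase for MCM6 to 81.1 for MCM3, and in OMO+DOX from 12.5 for MCM6 to 27.1 for MCM3. The highest exceeded the lowest 2.35-fold in OMO and 2.17-fold in OMO+DOX, so the subunits kept a similar spread of levels while all were lower.

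MCM8 and MCM9, relatives of the ring that form a separate helicase known for its role in recombination repair, did not move like it. MCM8 read 39.6, 38.5, 29.7 and 34.5 CPM in OMO and 22.9, 20.6, 21.0 and 22.0 CPM in OMO+DOX, a log2FC of -0.72 ± 0.08. MCM9 (ENSG00000111877.17, chr6:118813442-118935162) read 13.0, 13.7, 11.5 and 13.3 CPM in OMO and 23.6, 21.6, 22.6 and 20.5 CPM in OMO+DOX, 1.72-fold higher (log2FC 0.78 ± 0.07, adjusted p = 6.82e-07, edgeR quasi-likelihood test). These partners of 1 complex thus changed in opposite directions, each without overlap between the groups. MCM9 shares 137 of its 12496 exonic bases with ASF1A on the other strand, which stood at 25.7 and 24.5 CPM. Relative to MCM2 in the same library, MCM8 gained 1 ± 0.12 and MCM9 2.49 ± 0.10 on the log2 scale.

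Helicase activators fell as a group, all 6 by more than 1 on the log2 scale. GINS2 (ENSG00000131153.9, chr16:85676198-85690073), a subunit of the GINS tetramer, went from 16.5, 18.1, 19.6 and 16.7 CPM to 3.61, 3.61, 4.05 and 4.07 CPM, 4.62-fold lower (log2FC -2.21 ± 0.08). CDC45, which joins GINS and the ring in the active helicase, went from 20.8, 24.6, 25.6 and 23.3 CPM to 6.92, 6.03, 7.47 and 7.24 CPM (log2FC -1.77 ± 0.08). Neither gene's groups came near each other. GINS1 read 43.6, 46.2, 45.2 and 43.7 CPM in OMO and 16.5, 13.7, 15.2 and 14.4 CPM in OMO+DOX (log2FC -1.58 ± 0.06). GINS3 read 15.5, 17.8, 18.5 and 15.6 CPM in OMO and 6.66, 8.02, 7.43 and 7.86 CPM in OMO+DOX (log2FC -1.17 ± 0.08), and GINS4 had a log2FC of -1.15. The GINS subunits, which also work in equal numbers, spread 2.60-fold per kilobase in OMO (GINS1 over GINS4) and 3.21-fold in OMO+DOX (GINS1 over GINS2). MCM10, needed for the start of unwinding, read 37.1, 40.3, 35.4 and 41.0 CPM in OMO and 14.3, 13.9, 13.4 and 13.6 CPM in OMO+DOX (log2FC -1.48 ± 0.06).

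**Figure D3:**
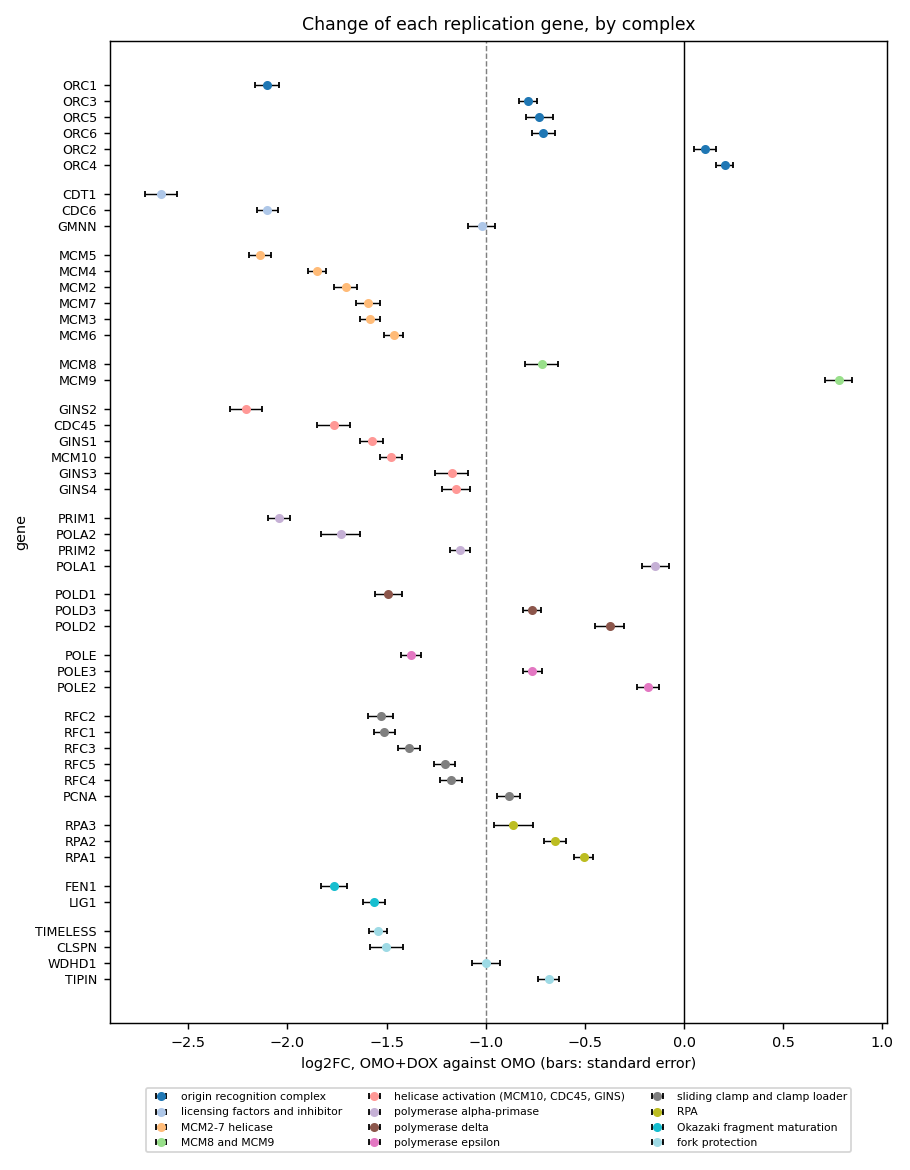
log2FC of OMO+DOX against OMO with its standard error for each of the 48 replication genes, grouped by complex. The licensing factors with GMNN, the MCM2-7 ring, the helicase activators and FEN1 with LIG1 lie below -1 throughout. MCM8, MCM9 and the RPA subunits lie above -1, and each of the other complexes holds members on both sides of -1.

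Polymerase alpha-primase, which lays the RNA-DNA primers, was split between its DNA polymerase subunit and the rest. POLA1, the DNA polymerase subunit, read 51.1, 54.8, 44.8 and 54 CPM in OMO and 48, 45, 48.7 and 43.3 CPM in OMO+DOX, and these values overlap. Its log2FC of -0.14 ± 0.07 missed the threshold (adjusted p = 0.0705, edgeR quasi-likelihood test), and without OMO replicate 3, the lowest untreated library, it was -0.22 and passed (adjusted p = 0.00106). PRIM1 (ENSG00000198056.15, chr12:56731596-56752373), the catalytic primase, went from 74.9, 78.9, 81.7 and 73.2 CPM to 17.8, 20.3, 18.6 and 18.3 CPM, 4.12-fold lower (log2FC -2.04 ± 0.06). PRIM1 shares 362 of its 2437 exonic bases with AC117378.1 and 33 with NACA, both on the same strand. NACA averaged 1114 CPM in OMO and 998 CPM in OMO+DOX. The part of shared reads in the fall of PRIM1 was not tested. POLA2, the regulatory subunit, went from 26.4, 28.4, 27.6 and 23.9 CPM to 8.83, 6.23, 8.35 and 8.50 CPM (log2FC -1.73 ± 0.10), and PRIM2 had a log2FC of -1.13. POLA2 shares 2012 of its 5726 exonic bases with AP000944.2 on the same strand (log2FC -1.13), so that its counts rest in part on how reads were divided between the pair.

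In the leading and lagging strand polymerases, the catalytic subunit had the largest fall of the subunits among the 48 genes. POLE, the catalytic subunit of polymerase epsilon, read 152, 155, 142 and 157 CPM in OMO and 62.0, 57.1, 56.8 and 57.8 CPM in OMO+DOX (log2FC -1.38 ± 0.05). POLD1, the catalytic subunit of polymerase delta, read 73.4, 80.2, 86.1 and 77.0 CPM in OMO and 28.8, 25.6, 27.4 and 30.7 CPM in OMO+DOX (log2FC -1.49 ± 0.07). Among the 48 genes, the log2FC of the accessory subunits were closer to 0. POLE3 and POLD3 had log2FC of -0.76 and -0.77, and POLD2 of -0.37 ± 0.07. The accessory subunits POLE4 and POLD4, outside the 48, did not fall. POLE4 was higher without overlap (log2FC 0.75, adjusted p = 5.43e-05, edgeR quasi-likelihood test), and POLD4 was not called (log2FC 0.18). POLE2 fell least of all genes called, with a log2FC of -0.18 ± 0.05 (adjusted p = 0.00881, edgeR quasi-likelihood test), and this call was lost without OMO+DOX replicate 1 (log2FC -0.14, adjusted p = 0.0625) and when libraries were scaled by their total counts alone (log2FC -0.055, adjusted p = 0.358).

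Within the clamp and its loader stood the most abundant of these transcripts. RFC1, the large subunit of the loader, averaged 612 ± 36.3 CPM in OMO and 215 ± 7.33 CPM in OMO+DOX (SD, n = 4 each), and its log2FC was -1.51 ± 0.05. Per kilobase it led the 48 genes in OMO at 126 CPM per kilobase, ahead of PCNA, the clamp, at 114. In OMO+DOX the order was exchanged, with PCNA at 61.9 and RFC1 at 44.1 CPM per kilobase. RFC2, RFC3, RFC4 and RFC5 fell by 1.53, 1.39, 1.17 and 1.21 on the log2 scale, and PCNA, which many repair pathways also use, by 0.88. The 3 subunits of RPA, which coats single-stranded DNA in replication and repair alike, fell by 0.51 (RPA1), 0.65 (RPA2) and 0.86 (RPA3), none of them beyond 1.

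Okazaki fragment maturation followed the helicase rather than RPA in size. FEN1, the flap nuclease, went from 113, 129, 139 and 125 CPM to 37.1, 34.8, 38.6 and 38.6 CPM (log2FC -1.76 ± 0.07), and LIG1, the ligase that seals the fragments, fell by 1.56 on the log2 scale. Of the factors that protect the fork, TIMELESS read 222, 231, 224 and 230 CPM in OMO and 82.2, 74.0, 78.1 and 76.8 CPM in OMO+DOX (log2FC -1.54 ± 0.05). CLSPN, the adaptor through which ATR activates CHK1, read 33.2, 35.2, 27.9 and 33.6 CPM in OMO and 12.8, 11.1, 10.6 and 11.4 CPM in OMO+DOX (log2FC -1.50 ± 0.08). Both fell to a similar extent. TIPIN, the partner of TIMELESS, fell by 0.68, and WDHD1, which tethers polymerase alpha to the helicase, by 0.997.

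**Figure D4:**
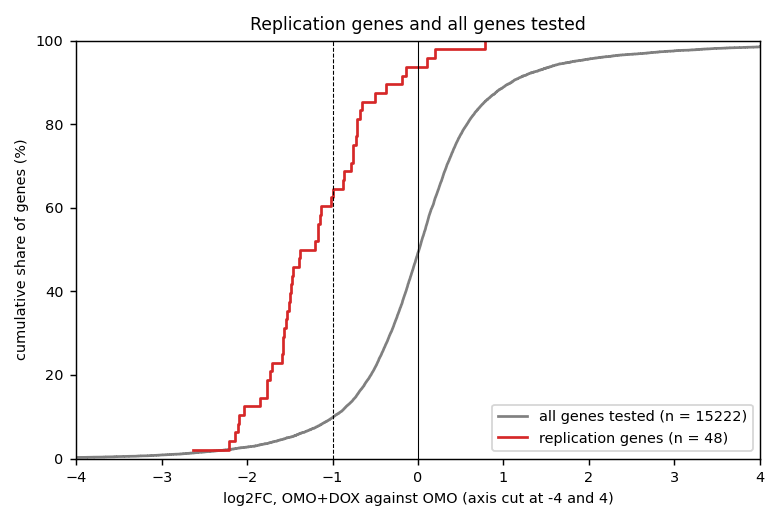
Cumulative share of genes (vertical axis) by log2FC of OMO+DOX against OMO (horizontal axis) for the 48 replication genes and for all 15222 genes tested, with the axis cut at -4 and 4 and a dashed line at -1. The replication genes have a median of -1.29 and all genes tested a median of 0.01.

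Ratios between partner transcripts within a library, which do not depend on how libraries are scaled, were compared between the groups for 9 pairs. A two-sided exact permutation test over the 4 OMO and 4 OMO+DOX libraries reached its smallest possible value (p = 0.0286) for 6 pairs, each at an adjusted p of 0.0429. These were CDT1/GMNN, CDC6/GMNN, ORC1/ORC2, MCM8/MCM2, MCM9/MCM2 and MCM10/MCM2, the last with a small log2 difference of 0.23 ± 0.08. The log2 difference of GINS1/GINS3 was -0.41 ± 0.13 (exact permutation p = 0.0571, adjusted p = 0.0735). POLE/POLD1 differed by 0.12 ± 0.09 (exact permutation p = 0.286, adjusted p = 0.321) and CLSPN/TIMELESS by 0.04 ± 0.08 (exact permutation p = 0.571), so that no difference was detected for these pairs. When any one of the OMO libraries, or OMO+DOX replicate 2, was left out, 5 pairs still reached the smallest p of the exact test, which with 5 pairs there comes to an adjusted p of 0.0514, so that 0 pairs were called. Over all 8 omissions the log2 differences stayed between -1.66 and -1.58 for CDT1/GMNN, -1.14 and -1.02 for CDC6/GMNN, -2.27 and -2.16 for ORC1/ORC2, 0.90 and 1.08 for MCM8/MCM2, 2.42 and 2.56 for MCM9/MCM2, and 0.18 and 0.28 for MCM10/MCM2.

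Lists of genes that work around the machinery were counted in the same way, beside the 38.1% of all genes tested that were lower and the 38.5% that were higher. Of 10 firing kinases and initiation adaptors, 9 fell and 1 rose (median log2FC -0.65), led by the helicase RECQL4 (-1.65), the firing adaptor TICRR (-1.18) and the kinase activator DBF4B (-0.80). Of 20 other fork factors, 17 fell and 2 rose (median -0.97), led by the PCNA-binding PCLAF (-2.47), the ubiquitin ligase adaptor DTL, which directs CDT1 to degradation (-1.90), and the nuclease subunit RNASEH2A (-1.57). Replication-coupled chromatin assembly, the rebuilding of nucleosomes and DNA methylation behind the fork, had 9 of 10 genes lower and 0 higher (median -1.27), led by UHRF1 (-2.40), CHAF1B (-2.03) and ASF1B (-1.75). Of the replication checkpoint, 6 of 10 genes were lower and 3 higher (median -0.43), the latter no larger a share than over all genes tested. Its largest changes were those of the phosphatase CDC25A (-1.85) and the kinases CHEK1 (-1.55) and WEE1 (-1.20).

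Transcripts of other cell cycle stages fell as well. Among G1/S transcripts outside the machinery, 22 of 23 tested were lower and 0 higher (median log2FC -1.24), led by the ribonucleotide reductase subunit RRM2 (-2.66), E2F2 (-2.50) and thymidine kinase TK1 (-1.98). Among G2/M transcripts, 22 of 22 were lower (median -1.59), led by the mitotic kinase AURKB (-2.59) and the spindle factors TPX2 (-2.02) and NUSAP1 (-1.97). No test set these lists against the replication genes. Of the transcripts of cell cycle exit and arrest, 7 of 14 tested were higher and 6 lower (median 0.22). These shares were near those over all genes tested (38.5% and 38.1%). A rise of more than 1 on the log2 scale was reached by 4 of the 14, against 11% of all genes tested. A fall of that size was reached by 1, against 9.81%. The 4 were GADD45A (3.32), the CDK inhibitor CDKN2B (3), CDKN1A (1.11) and CDKN2A (1.07), and the 1 was CDKN2C (-1.93). CDKN2B stood at 0.45 to 0.69 CPM in OMO, so it passed the filter on low counts through OMO+DOX alone. Of MYC and its textbook targets, 6 of 10 were lower and 4 higher (median -0.31), the latter near the 38.5% over all genes tested, and the largest changes were those of the nucleolar proteins FBL (-1.55) and NOP56 (1.02) and of LDHA (-1.09). CAD, the enzyme that starts pyrimidine synthesis, read 163, 159, 158 and 167 CPM in OMO and 119, 109, 116 and 118 CPM in OMO+DOX (log2FC -0.48 ± 0.05). NCL, which encodes nucleolin, read 1508, 1527, 1639 and 1540 CPM in OMO and 1137, 1144, 1149 and 1149 CPM in OMO+DOX (log2FC -0.44 ± 0.04). Both were lower without overlap, by less than the median replication gene.

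**Figure D5:**
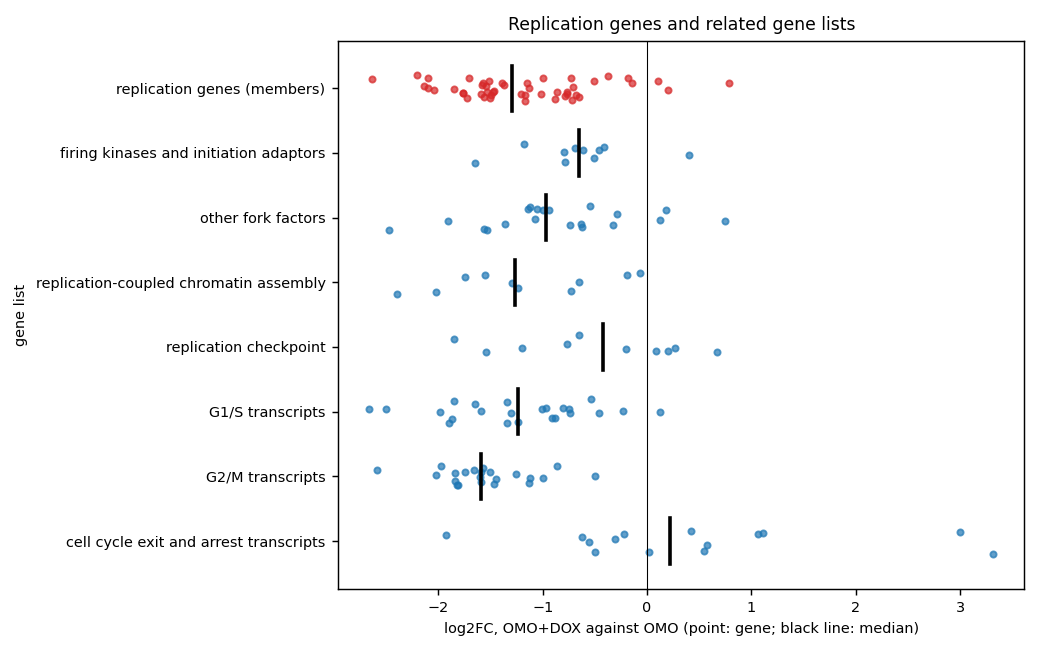
log2FC of OMO+DOX against OMO (points, 1 per gene tested) for the 48 replication genes and for the lists of related replication and cell cycle genes, with a black line at the median of each. The G2/M list has a median of -1.59, the replication genes -1.29, the G1/S list -1.24 and the exit and arrest list 0.22.

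Of the 48 genes, 21 share exonic bases with another annotated gene, 15 of them only with genes on the other strand and 6 with a gene on the same strand. In 21 of the 48 at least 1 library held an expected count that is not whole (any fractional part in the deposited value, with no tolerance), which happens when reads were divided between genes, and in the other 27 every count was whole. CDT1, ORC1, CDC6, MCM5 and GINS2, 5 of the 6 genes past the limits of the study, had whole counts in all 8 libraries, while PRIM1 had counts that were not whole in all 8. Of the genes called higher, ORC4 had counts that were not whole in all 8 libraries and MCM9 in 7. MCM2, to which the other MCM genes were set in the ratios, had them in all 8. The untreated libraries were not equal for these genes, since OMO replicate 3 held the highest of the 4 untreated values for 24 genes and the lowest for 11, and OMO replicate 1 the lowest for 25. These differences were small beside the larger falls but not beside some of the smallest. POLD2 read 62.3 to 75.4 CPM in OMO, beside means of 65.8 CPM in OMO and 50.7 CPM in OMO+DOX. POLE2 read 14.8 to 16.5 CPM in OMO, beside means of 15.9 and 14.0 CPM. Leaving out OMO replicate 3 changed the call of POLA1 alone.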

How the data were processed

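Polyadenylated RNA of 4 OMO and 4 OMO+DOX (72 h) replicates was sequenced as read pairs from a stranded kit. Per the labels and the study's methods, reads were trimmed with Trim Galore, aligned with STAR to GRCh38 with GENCODE 32 and quantified with RSEM; versions are not given in the sources used here, nor whether counting used strand. The authors deposited expected counts per gene, which are not normalized and need not be whole because RSEM divides ambiguous reads. Samples were grouped by their labels.

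Expected counts were rounded. The 15222 genes above 1 CPM in 4 or more of the 8 libraries entered the quasi-likelihood test of edgeR 4.0.16 (R 4.3.3), with TMM normalization, no covariates and p-values adjusted by Benjamini-Hochberg. The SE was obtained by dividing the size of a log2FC by the root of its F statistic. CPM use TMM-scaled library sizes. Depth was 38390696 to 54020506 counts per library, and a floor of 3 counts covers counting error only. Ratios of 9 gene pairs were compared with two-sided exact permutation tests over 4 against 4 libraries (smallest p 0.0286). Lists of related genes were described by counts and medians, with no set test. Gene coordinates, exonic overlaps and principal transcript lengths for CPM per kilobase come from GENCODE 29 (GRCh38), and promoters from RefSeq (GRCh38.p14). The fit was tested on simulated data.

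Values per library are given for the 12 genes of largest absolute log2FC among those called without overlap, those that moved against the rest, those not called, those in the ratios, and MYC, CAD and NCL. For each related list the 3 largest called changes are named. Values of other genes named singly were chosen after they were seen. The genes and lists were chosen with earlier results of these data known. Alternatives were DESeq2 1.42.0 (size factors or Wald test), library size only, edgeR's likelihood ratio test, other low-count filters, a replicate block and leaving out each replicate. The result of the glial marker list is not reported here.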

Additional observations from a re-analysis of the deposited data

Results flagged for a closer look

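Among the 96 groups of 4 libraries (48 genes in each condition), 7 held a library whose gap to the nearest other, divided by the range of the group, exceeded Dixon's 95% critical value, where chance gives about 1 in 20 groups, or 4.8. Of these, 3 were in OMO replicate 3. CDT1 stood at 78.3 CPM there, with the other untreated libraries at 64.7 to 66.3. POLD2 stood at 75.4 CPM in the same library, with the others at 62.3 to 63.0, and RFC1 at 557 CPM, with the others at 624 to 633. MCM4 stood at 259 CPM in OMO replicate 2, with the others at 243 to 244. Among treated libraries, ORC5 stood at 8.42 CPM in replicate 1 (others 7.84 to 7.90), LIG1 at 32.8 CPM in replicate 2 (others 37.6 to 38.5) and RFC3 at 17.7 CPM in replicate 4 (others 18.8 to 18.9). Each of these 7 genes was lower in every OMO+DOX library than in any OMO library, with these values included, and kept its call when any 1 library was left out.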

How the results depend on the processing

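Of 720 recomputed log2FC (48 genes under 15 alternatives), 714 kept their direction and their side of the FDR threshold, 2 lost and 4 gained a call, and 0 changed sign. With library size only, the median of all genes moved to 0.14, 3 in place of 6 genes passed the limits of the study, ORC2 was called higher (log2FC 0.23) and POLE2 was not called (-0.055). ORC2 was also called without OMO+DOX replicate 4 (0.15), and POLA1 with no filter on low counts (-0.17) and without OMO replicate 3 (-0.22). POLE2 was not called without OMO+DOX replicate 1 (-0.14). Leaving out each replicate in turn gave 43 to 45 genes lower and 2 to 3 higher, 29 to 31 lower and 0 higher with an absolute log2FC above 1, and 5 to 6 lower and 0 higher at the limits of the study. The count of ratios called ranged from 0 to 6, and the log2 difference of CLSPN/TIMELESS from -0.022 (without OMO replicate 3, a change of sign) to 0.085.

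The deviations of replicates of equal number from their group means correlated at -0.176 to 0.241. With 4 pairs and no other pairs set beside them, these values cannot decide whether the numbers pair the libraries. With the replicate block, 44 genes were lower and 2 higher, 30 lower with an absolute log2FC above 1 and 6 at the limits of the study, with the same call for all 48. A sign-flip test of the ratios over equal replicate numbers cannot reach the threshold with 4 pairs, and so it makes no call either way. The lowest count of a replication gene in any library was 145, and the part of depth in calls near the threshold was not tested.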
